A study of Mus musculus with 12 samples.

Results

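The genes Hal, Itga9, Klk1, Ceacam10, Tesc, Hyi, Adat2, Hsd3b2 and Tshb were followed across 12 arrays of cultured mouse type II alveolar epithelial cells, the surfactant-making cells of the lung alveolus. They are 9 of the 18193 genes with a probe set of their own on the array, and all 9 were found, through 17 probe sets annotated to the member alone. They were chosen by their measured levels, which differ widely between the Gna12 and the Gna11 single knockout, so that difference is given below as a description with no test. The question tested was whether the double knockouts differ in the same direction. The rule for the choice uses the single knockout arrays alone, but the set was proposed with earlier results of all arrays known. Each gene is described by its brightest probe set (largest mean across the 12 arrays), and all other probe sets are given too.

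The groups were Gna12/Gna13 knockout cells, Gnaq/Gna11 knockout cells (written Gnaq/Ga11 and Gna12/Ga13 in the sample names), Gna12 knockout cells and Gna11 knockout cells, with 3 arrays each. All were kept in culture for 7 days with no further treatment, on collagen, in medium made for bronchial epithelium to which KGF, an epithelial growth factor, was added and from which hydrocortisone was left out. No wild type group was analysed here, and the sources used here do not give strain, age or the way the genes were deleted. Nothing says that the 3 arrays of a group stem from separate animals or cultures, so p-values cover just the variation among these arrays, and part or all of it may be technical. Values are the authors' RMA expression values, read as log2, with n = 3 arrays per group.

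Gna11 and Gnaq encode alpha subunits of G proteins that couple receptors to phospholipase C and calcium, and Gna12 and Gna13 encode those that couple receptors to RhoA. The genes followed here belong to no common pathway. Hal encodes histidine ammonia-lyase, which turns histidine into urocanate and is known from liver and skin. Itga9 encodes the integrin alpha9 chain, which pairs with beta1 and binds tenascin-C and VCAM-1. Klk1 encodes tissue kallikrein, a protease that releases kinins from kininogen, and Ceacam10 a small member of the carcinoembryonic antigen family. Tesc encodes tescalcin, a calcium-binding protein that binds a sodium/proton exchanger, Hyi a hydroxypyruvate isomerase, and Adat2 the catalytic subunit of the deaminase that makes inosine in the anticodon of transfer RNAs. Hsd3b2 belongs to the 3-beta-hydroxysteroid dehydrogenases of steroid metabolism, and Tshb encodes the beta chain of thyroid-stimulating hormone, a pituitary hormone.

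Promoter windows, 300 bases around the annotated start and mostly upstream of it, were read from RefSeq (GRCm38.p6) for 8 of the 9 genes, and Hyi was not matched. Those of Hal, Itga9, Klk1 and Ceacam10 are printed because these genes had the largest single knockout gaps of the set. Capitals mark matches, on either strand, to the TATA box TATAAA, the box CCAAT, the GC box GGGCGG, the cyclic AMP element TGACGTCA or TGANTCA. With N as any base, TGANTCA is a looser form of the AP-1 motif, so a match need not be an AP-1 site. No matches overlapped in the windows printed.
Hal, chr10:93488518-93488817, strand +: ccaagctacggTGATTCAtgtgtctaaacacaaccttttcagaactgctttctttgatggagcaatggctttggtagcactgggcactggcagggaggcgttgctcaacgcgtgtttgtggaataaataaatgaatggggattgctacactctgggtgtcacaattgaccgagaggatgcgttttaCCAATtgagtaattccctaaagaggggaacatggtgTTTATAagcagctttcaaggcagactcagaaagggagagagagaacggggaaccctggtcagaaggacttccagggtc
Itga9, chr9:118711442-118711741, strand +: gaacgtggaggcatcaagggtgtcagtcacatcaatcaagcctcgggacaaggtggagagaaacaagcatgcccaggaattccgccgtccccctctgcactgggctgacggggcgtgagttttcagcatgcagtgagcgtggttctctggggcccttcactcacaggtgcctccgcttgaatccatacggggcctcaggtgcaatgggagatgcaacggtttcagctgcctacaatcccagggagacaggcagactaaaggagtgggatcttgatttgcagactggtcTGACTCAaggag
Klk1, chr7:44225110-44225409, strand +: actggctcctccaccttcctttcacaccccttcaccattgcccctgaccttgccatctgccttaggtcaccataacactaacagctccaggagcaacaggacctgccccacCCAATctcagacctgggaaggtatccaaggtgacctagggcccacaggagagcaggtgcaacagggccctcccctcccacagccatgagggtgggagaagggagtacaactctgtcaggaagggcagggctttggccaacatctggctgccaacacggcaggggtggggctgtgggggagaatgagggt
Ceacam10, chr7:24776917-24777216, strand +: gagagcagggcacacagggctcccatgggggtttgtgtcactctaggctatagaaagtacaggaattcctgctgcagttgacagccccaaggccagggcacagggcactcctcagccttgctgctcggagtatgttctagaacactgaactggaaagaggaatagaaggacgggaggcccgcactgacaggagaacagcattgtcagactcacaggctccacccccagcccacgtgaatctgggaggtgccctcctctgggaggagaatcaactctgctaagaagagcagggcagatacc
The Hal window held TATAAA, the box CCAAT and the motif TGANTCA once each, the Itga9 window TGANTCA once, the Klk1 window CCAAT once, and the Ceacam10 window none of these. Over all 32851 windows of this length, TATAAA was found in 13.6%, CCAAT in 37.4%, GGGCGG in 35.7%, TGACGTCA in 1.79% and TGANTCA in 7.81%. The windows printed have 7, 10, 1 and 4 CpG dinucleotides in the same order, and the median of all windows is 7. A second start of Ceacam10 lies within the window printed and shares most of it. No single motif of those searched was in all of the windows of the genes that were lower together. The remaining windows are summarised by their matches: Tesc held GGGCGG at 2 places, Adat2 held TATAAA once and CCAAT at 2 places, Tshb held TATAAA at 3 places, 1 of which reads it on both strands, and Hsd3b2 held none.

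The samples differed in measures besides the deleted genes. Medians of the 12 arrays lay between 5.031 and 5.11. Gnaq/Gna11 arrays read 3.32 to 3.54 for the Y-linked gene Eif2s3y. Of the arrays of the other 3 groups, those numbered replicate 2 were at 3.07 to 3.56 and the remaining ones at 6.91 to 7.37. The mean of 20 pan-leukocyte genes was 9.08 to 9.89 in Gna12/Gna13 arrays and 9.31 to 9.34 in Gnaq/Gna11 arrays, and 9.50 to 10.04 in Gna12 arrays and 8.33 to 8.94 in Gna11 arrays. The difference between 3' and 5' Gapdh probe sets, a measure of RNA quality, was 2.99 to 3.33 in Gna12/Gna13 arrays and 3.01 to 3.26 in Gnaq/Gna11 arrays, and 2.67 to 3.25 in Gna12 arrays and 3.46 to 4.03 in Gna11 arrays. The Gna11 arrays thus stood above all others, and the part of this in the single knockout gaps and in the differences between double and single knockouts was not tested. The surfactant gene Sftpc was at 13.11 ± 0.206 in Gna12/Gna13 cells and 13.26 ± 0.0356 in Gnaq/Gna11 cells, and at 13.07 ± 0.262 in Gna12 cells and 13.37 ± 0.0192 in Gna11 cells (SD, n = 3 each), near the top of the scale in all groups. Markers of other cells read about as high. Group means were 13.18 to 13.22 for the airway gene Scgb1a1 and 12.89 to 12.99 for the macrophage gene Chil3. The Sftpc level alone therefore does not give the share of type II cells. The position code of a sample has the number 4 in all arrays lacking Gna12 and 2 in all arrays lacking Gna11. For each targeted gene, 1 probe set was lower in every array labelled as lacking it than in every other array: Gna11 at 6.86 to 7.83 against 7.98 to 8.57, Gna12 at 5.61 to 5.91 against 5.97 to 6.22, Gna13 at 6.17 to 7.76 against 7.97 to 8.69, and Gnaq at 6.21 to 7.07 against 7.31 to 8.56. These were picked after their values were seen, from 2, 5, 7 and 7 probe sets, and the others overlapped; whether any lies in the deleted part is not known here. The position number and the genotype therefore cannot be told apart in any difference between Gna12-lacking and Gna11-lacking arrays.

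For all 9 genes the double knockouts differed in the same direction as the single knockouts, and the 3 Gna12/Gna13 arrays did not overlap with the 3 Gnaq/Gna11 arrays. Hal, Itga9, Klk1, Tesc, Hyi, Adat2, Hsd3b2 and Tshb were at lower values in Gna12/Gna13 cells, and Ceacam10 was at higher values. In the single knockouts, whose gap chose the genes, none of the 9 overlapped either, beside 26.3% of all genes that did not. Over all genes, 28.4% had double knockout arrays that did not overlap, 15.5% with Gna12/Gna13 lower and 12.9% with Gna12/Gna13 higher. With limma on the 6 double knockout arrays and Benjamini-Hochberg adjustment over 45037 probe sets, 7 of the 9 genes were called at an adjusted p under 0.05, against 2.82% of all genes (1.25% lower) and 1.95% of all probe sets. The 7 were Hal, Itga9, Hsd3b2, Hyi, Tshb, Klk1 and Adat2, all lower in Gna12/Gna13 cells. Without Gna12/Gna13 replicate 1, 2 or 3 the count was 4, 3 or 3, and without Gnaq/Gna11 replicate 1, 2 or 3 it was 4, 3 or 2, with Hal and Itga9 called each time. Since this set was proposed with earlier results of these data in view, the share called is no independent evidence for it.

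**Figure D1:**
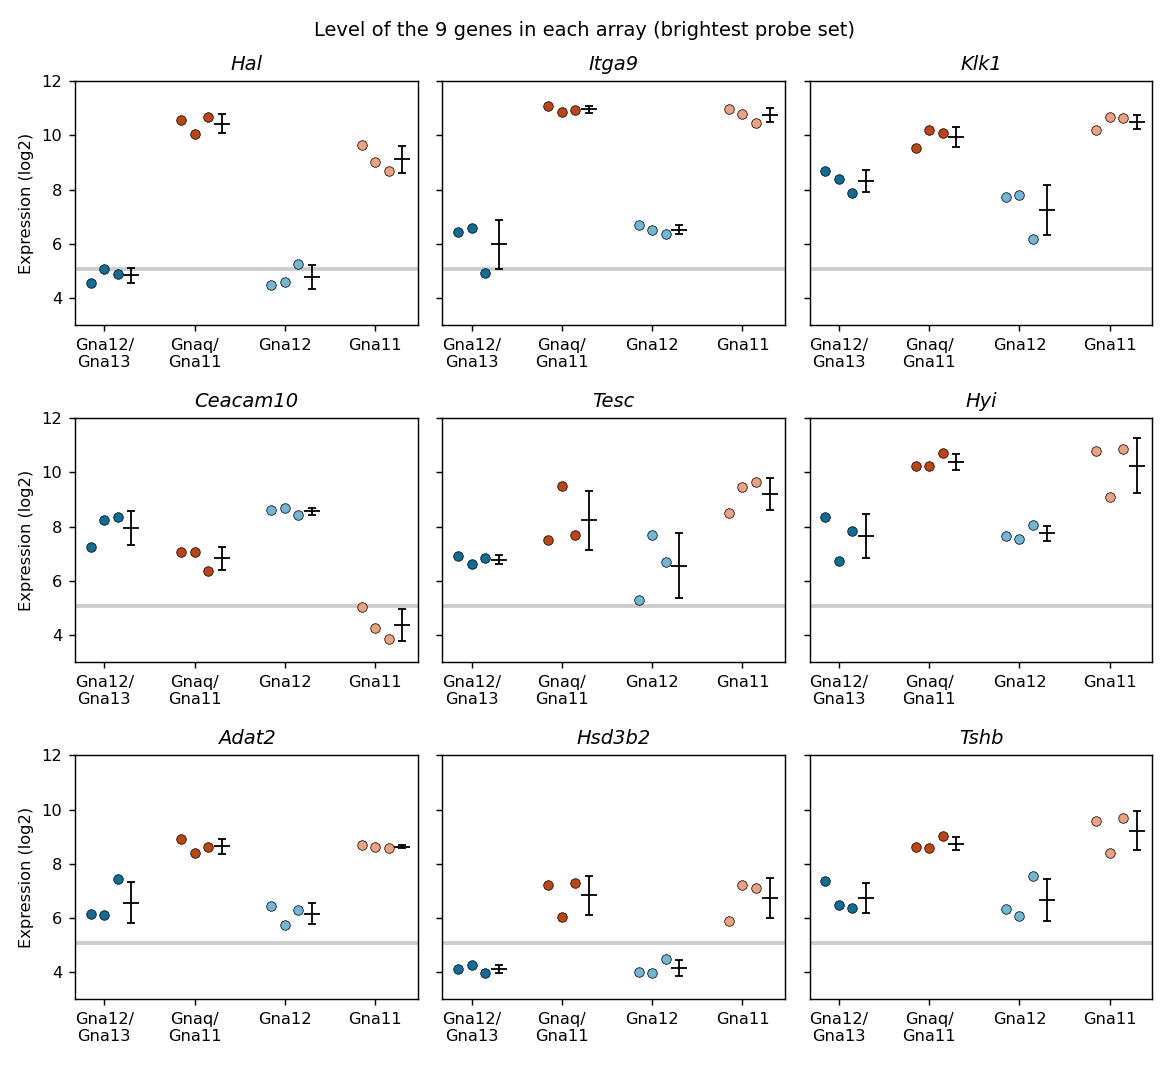
Expression (log2) of the 9 genes in each of the 12 arrays, by genotype, for the brightest probe set. Points are arrays, the bar beside them is mean ± SD (n = 3), and the grey band is the range of array medians, 5.031 to 5.11. Hal and Itga9 are apart by 3.41 and 3.75 log2 units at the closest arrays between Gna12-lacking and Gna11-lacking arrays, while Ceacam10 runs the other way and its Gnaq/Gna11 arrays lie between the Gna11 arrays and the rest.

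Hal was at 4.55, 5.07 and 4.88 in Gna12/Gna13 arrays, against 10.58, 10.04 and 10.67 in Gnaq/Gna11 arrays. The difference was -5.60 ± 0.248 (SE, limma adjusted p = 0.00228). No fold is given, because the Gna12/Gna13 values lie near or under the array medians and were not shown to be above background. In the single knockouts Hal was at 4.47, 4.60 and 5.27 in Gna12 arrays, against 9.64, 9.01 and 8.68 in Gna11 arrays. All 6 Gna12-lacking arrays thus lay near the array medians, and the closest Gna11-lacking array was 3.41 above them. The Gnaq/Gna11 arrays were all above the Gna11 arrays, by 1.32 in the mean, and the Gna12/Gna13 and Gna12 arrays overlapped. In order of level, Gnaq/Gna11 cells came before Gna11 cells, and Gna12/Gna13 and Gna12 cells did not differ beyond their spread.

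Itga9 was at 6.43, 6.57 and 4.92 in Gna12/Gna13 arrays, against 11.08, 10.85 and 10.93 in Gnaq/Gna11 arrays, a difference of -4.98 ± 0.423 (SE, 31.6-fold lower, limma adjusted p = 0.00861). It was at 6.70, 6.50 and 6.37 in Gna12 arrays, against 10.96, 10.80 and 10.45 in Gna11 arrays. The spread within a group was small beside this gap, except for Gna12/Gna13 replicate 3, the lowest array. Its value of 4.92 was under the median of every array and not shown to be above background, so the 31.6-fold is approximate. Within each pair that lacks the same gene, the double and the single knockout arrays overlapped. These values come from 1 of the 3 Itga9 probe sets. The other two did not show the gap: they differed by 0.00 ± 0.183 and -0.28 ± 0.258 (SE) between the double knockouts (adjusted p = 0.998 and 0.607), at levels of 5.84 to 6.30 and 5.05 to 6.06 in these 6 arrays. As the mean of its 3 probe sets, Itga9 differed by -1.76.

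The kallikrein gene Klk1 was at 8.68, 8.37 and 7.89 in Gna12/Gna13 arrays, against 9.53, 10.19 and 10.09 in Gnaq/Gna11 arrays. The difference was -1.62 ± 0.266 (SE, 3.08-fold lower, limma adjusted p = 0.0375). It was at 7.72, 7.80 and 6.17 in Gna12 arrays, against 10.21, 10.67 and 10.63 in Gna11 arrays, so the gap between the double knockouts was 49.6% of that between the single knockouts. The Gna12/Gna13 arrays lay above all Gna12 arrays, by 1.09 in the mean, and the Gnaq/Gna11 arrays below all Gna11 arrays, with a mean difference of -0.57. In order of level, Gna11, Gnaq/Gna11, Gna12/Gna13 and Gna12 cells followed each other with no overlap between neighbours. Klk1 has 4 probe sets. A second gave -1.62 ± 0.235 (adjusted p = 0.0295), and the dimmer others gave -0.61 ± 0.240 and -0.13 ± 0.202 (adjusted p = 0.250 and 0.778). The suffix of 3 of the 4 (x_at) marks probes that can also bind other transcripts, and Klk1 has close relatives in mouse, which was not tested further.

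Ceacam10 ran the other way. It was at 7.24, 8.25 and 8.35 in Gna12/Gna13 arrays, against 7.08, 7.07 and 6.35 in Gnaq/Gna11 arrays, and the groups were 0.15 apart at their closest arrays. The difference of 1.11 ± 0.360 (SE) did not pass (limma adjusted p = 0.176), and its 95% interval ran from 0.26 to 1.95. In the single knockouts it was at 8.61, 8.67 and 8.42 in Gna12 arrays, against 5.03, 4.26 and 3.87 in Gna11 arrays, where no Gna11 value exceeds 5.03. The gap between the double knockouts was 26.5% of this. The Gnaq/Gna11 arrays were all above the Gna11 arrays, by 2.45 in the mean, and the Gna12/Gna13 arrays all under the Gna12 arrays, with a mean difference of -0.62. A second probe set showed the same order of groups, with 0.69 ± 0.261 between the double knockouts (adjusted p = 0.230), where the arrays did not overlap. The third ran the other way, also without overlap, with -0.22 ± 0.0723 (SE, 95% interval -0.39 to -0.05, adjusted p = 0.173), at 3.04 to 3.35 in these 6 arrays and so under the median of every array.

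Tesc had the widest spread of the 9 genes in Gnaq/Gna11 and Gna12 arrays (SD 1.09 and 1.20), but the narrowest in Gna12/Gna13 arrays (SD 0.159). It was at 6.90, 6.61 and 6.85 in Gna12/Gna13 arrays, against 7.51, 9.49 and 7.69 in Gnaq/Gna11 arrays, and replicate 2 of the Gnaq/Gna11 cells stood above the other two. That difference, -1.44 ± 0.502 (SE), did not pass (limma adjusted p = 0.201), and its 95% interval ran from -2.62 to -0.26. In the single knockouts Tesc was at 5.29, 7.69 and 6.71 in Gna12 arrays, against 8.52, 9.45 and 9.64 in Gna11 arrays. Of the 9 genes it alone had Gna12-lacking and Gna11-lacking arrays that overlapped over all 12 arrays. Its second probe set gave -1.09 ± 0.557 (adjusted p = 0.362), again with replicate 2 of the Gnaq/Gna11 cells highest, at 8.02.

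The enzyme genes Hyi, Adat2 and Hsd3b2 were lower in Gna12/Gna13 cells by about as much as in the Gna12 cells. Hyi was at 8.34, 6.75 and 7.85 in Gna12/Gna13 arrays, against 10.22, 10.22 and 10.71 in Gnaq/Gna11 arrays, a difference of -2.74 ± 0.393 (SE, 6.66-fold, limma adjusted p = 0.0294). It was at 7.67, 7.54 and 8.06 in Gna12 arrays, against 10.78, 9.08 and 10.88 in Gna11 arrays. Adat2 was at 6.14, 6.11 and 7.43 in Gna12/Gna13 arrays, against 8.92, 8.39 and 8.62 in Gnaq/Gna11 arrays, a difference of -2.08 ± 0.381 (SE, 4.23-fold, limma adjusted p = 0.0477). This is close to the threshold, and replicate 3 of the Gna12/Gna13 cells was the highest of the Gna12-lacking arrays. Adat2 was at 6.45, 5.73 and 6.31 in Gna12 arrays, against 8.71, 8.63 and 8.57 in Gna11 arrays.

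Hsd3b2 was at 4.12, 4.28 and 3.96 in Gna12/Gna13 arrays, against 7.22, 6.02 and 7.29 in Gnaq/Gna11 arrays, a difference of -2.72 ± 0.341 (SE, limma adjusted p = 0.0220). It was at 4.0, 3.99 and 4.50 in Gna12 arrays, against 5.89, 7.23 and 7.10 in Gna11 arrays. All Gna12-lacking arrays were under the array medians and not shown to be above background, so no fold is given. A probe set shared by Hsd3b2, Hsd3b3 and Hsd3b6 stayed outside the set, and read 3.70 to 3.90 in Gna12/Gna13 arrays, against 4.50 to 5.16 in Gnaq/Gna11 arrays.

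Tshb was at 7.37, 6.49 and 6.38 in Gna12/Gna13 arrays, against 8.61, 8.60 and 9.01 in Gnaq/Gna11 arrays, a difference of -1.998 ± 0.303 (SE, 4-fold, limma adjusted p = 0.0320). It was at 6.35, 6.07 and 7.54 in Gna12 arrays, against 9.58, 8.4 and 9.70 in Gna11 arrays. For Hyi, Adat2, Hsd3b2 and Tshb the arrays of each double knockout overlapped with those of the single knockout that lacks the same gene.

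**Figure D2:**
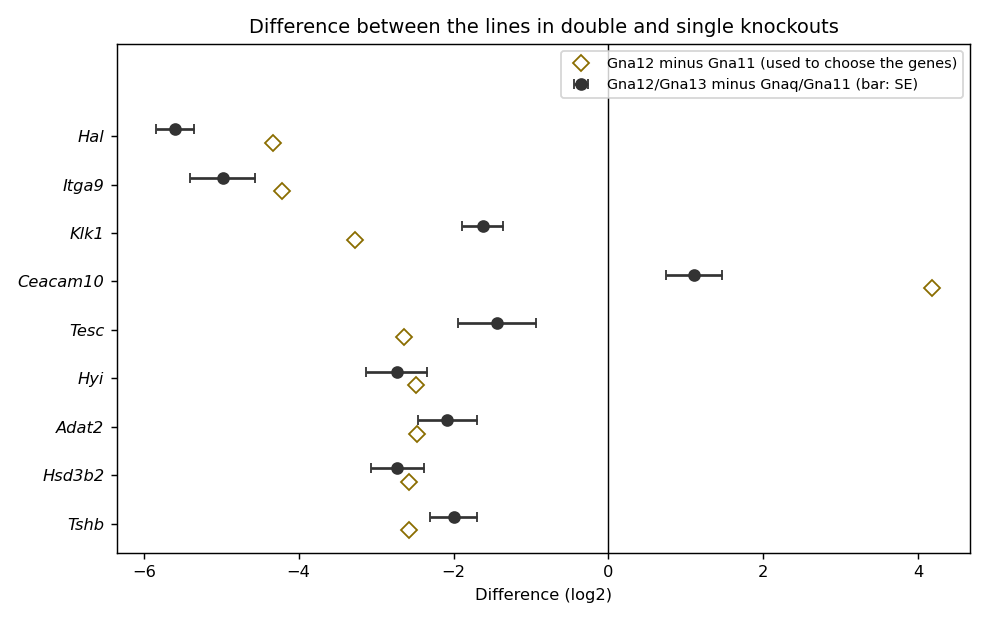
Log2 difference of each gene between Gna12/Gna13 and Gnaq/Gna11 cells (filled, with the SE of limma) and between Gna12 and Gna11 cells (open, the difference that chose the genes). Hal, Itga9, Hyi and Hsd3b2 are at least as far from 0 in the double as in the single knockouts, and Ceacam10, at 1.11 against 4.18, is the furthest from equal.

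**Figure D3:**
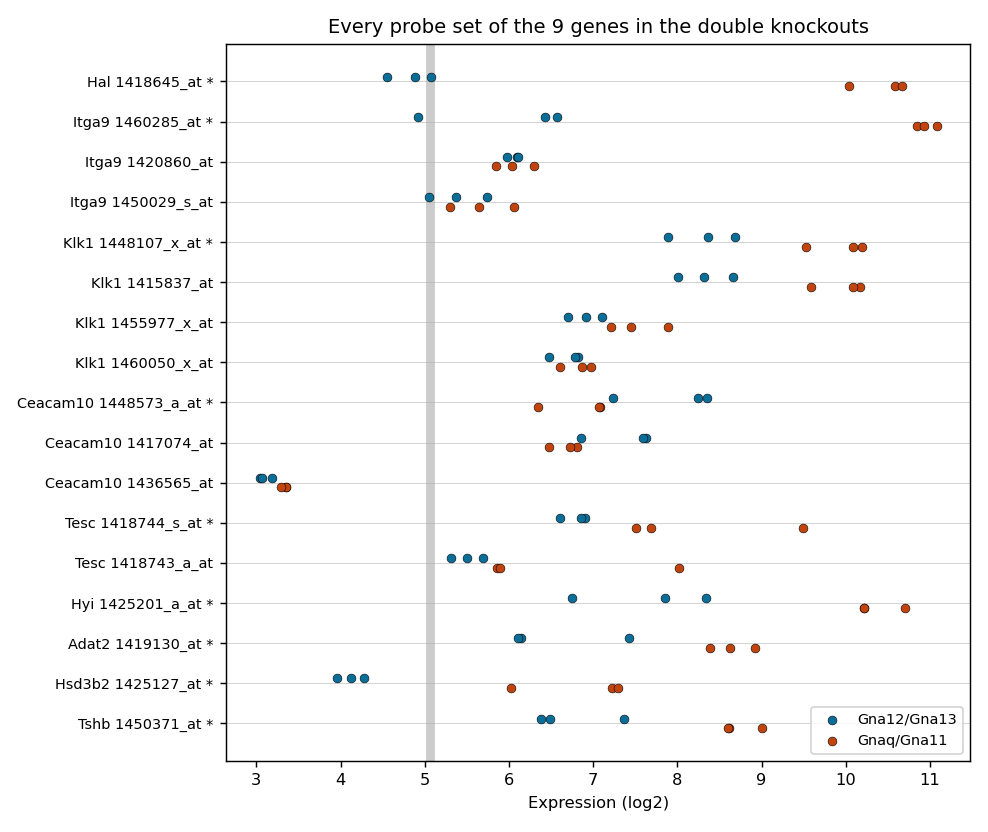
Expression (log2) in the 6 double knockout arrays for each of the 17 probe sets, with Gna12/Gna13 arrays above Gnaq/Gna11 arrays in each row, an asterisk at the brightest probe set of a gene and the range of array medians in grey. Itga9 is apart on 1 of 3 probe sets and Klk1 most clearly on 2 of 4.

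The size of the gap in the double knockouts differed between the genes. It was 129% of the single knockout gap for Hal, 118% for Itga9, 109.9% for Hyi, 106% for Hsd3b2, 84.2% for Adat2, 77.7% for Tshb, 54.5% for Tesc, 49.6% for Klk1 and 26.5% for Ceacam10. By the size of the single knockout gap the genes ranked between 2 (Hal) and 61 (Adat2) of 18193, and by that of the measured double knockout gap between 1 (Hal) and 874 (Ceacam10). Of the 10 genes with the largest falls in Gna12 against Gna11 cells, 8 are in the set. The other two were Elobl, at -2.71, and Cma1, a mast cell chymase, at -2.68. Just inside the set stood Adat2 at -2.47, and just outside Klk1b27 at -2.41, Greb1 at -2.40, Ets1 at -2.30 and Slc25a17 at -2.27. In the double knockouts Cma1 was lower by -3.29 ± 0.498, Ets1 by -1.49 ± 0.177 and Slc25a17 by -3.58 ± 0.238 (SE, limma adjusted p = 0.0320, 0.0205 and 0.005735), while Elobl, Klk1b27 and Greb1 were at -1.65, -0.90 and -2.11 and did not pass (adjusted p = 0.195, 0.278 and 0.0728).

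Outside the set, 52 genes had a single knockout gap at least as large as that of Adat2, 50 of them higher in Gna12 cells. Of the 52, 43 had the same sign in the double knockouts, 33 (63.5%) had the same sign without overlap and 11 (21.2%) were called with it. Over all 18184 other genes the same sign was seen in 66.6%, the same sign without overlap in 22.1% and a call with it in 2.32%. The median double knockout gap was 42.5% of the single knockout gap in the 52 genes and 84.2% in the 9, of which 8 are lower in Gna12 cells. In the 50 other genes that are higher in Gna12 cells it was 42.0%, and in the 2 that are lower, Elobl and Cma1, it was 91.7%.

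**Figure D4:**
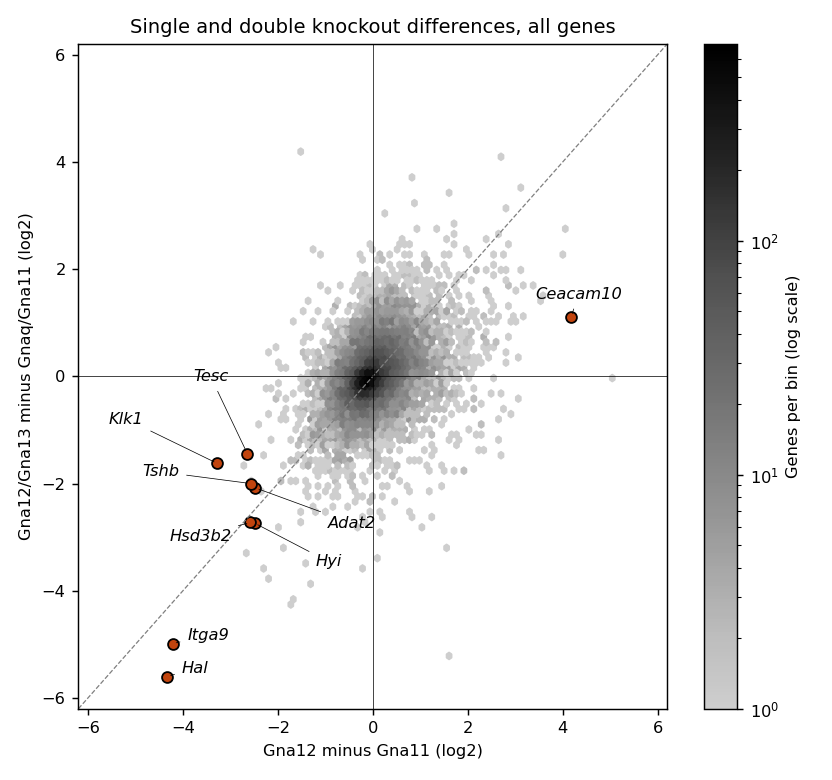
Log2 difference between Gna12 and Gna11 cells (horizontal) against that between Gna12/Gna13 and Gnaq/Gna11 cells (vertical) for all genes, as a density in grey with the 9 genes in colour. The dashed line marks equal differences. Hal and Itga9 lie at the lower left end, and Ceacam10 lies far below the line on the right.

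The genes most like each of the 9 over the 12 arrays were taken by Pearson correlation among 11487 genes no dimmer than the median. The 12 arrays share group, and with it the position number, and include the double knockouts, so these correlations are a description and the neighbours' own differences are not tested here. Nearest to Hal were Slco4c1 (r = 0.98), an organic anion transporter, the metalloproteinase Adam19 (0.98) and Prcd (0.97). Nearest to Itga9 were the semaphorin Sema4f (0.97), Elovl7 (0.96), an enzyme of fatty acid elongation, and the syndecan Sdc4 (0.96). Nearest to Klk1 were H2-Ke6 (0.95), Pacsin1 (0.94) and Mrps24 (0.94), and to Ceacam10 Myo1g (0.95), a myosin of blood cells, Gucd1 (0.94) and Tes (0.93). Tesc had the weakest matches, Irs4 (0.90), Ndufa13 (0.90) and P3h1 (0.89). Hyi was nearest to Ccdc107, Prkra and Stx8 (0.96, 0.96 and 0.95), Adat2 to Ccdc28a, Grcc10 and Gpam (0.99, 0.97 and 0.96), Hsd3b2 to H2bc21, Rasd2 and Sema4f (0.98, 0.94 and 0.94), and Tshb to Prps2, Cux1 and Alad (0.97, 0.95 and 0.94).

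Among themselves, the 8 genes that were lower in Gna12-lacking cells had correlations of 0.68 to 0.96 over the 12 arrays, and those with Ceacam10 ran from -0.85 to -0.68. With the group means taken out the correlations over the same arrays fell to between -0.72 and 0.79. The highest of these was that of Tshb with Hyi, which read low together in replicate 2 of the Gna11 cells. The lowest was that of Hal with Klk1.

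The genes lie on 6 chromosomes: Hal and Adat2 on 10, Itga9 on 9, Klk1 and Ceacam10 on 7, Tesc on 5, Hyi on 4, and Hsd3b2 and Tshb on 3. Of the targeted genes, Gna11 is on chromosome 10, with 83 measured genes between it and Hal and 485 between it and Adat2, and Gna12 is on chromosome 5, with 294 measured genes between it and Tesc. Gna13 and Gnaq are on chromosomes 11 and 19, which hold no member. On chromosome 3, 25 measured genes lie between Hsd3b2 and Tshb, and 36 between Hsd3b2 and H2bc21. On chromosome 10, 10 lie between Adat2 and Ccdc28a. None of the 18 nearest measured neighbours of the 9 genes was called in the double knockouts by limma, and 4 had an unadjusted p under 0.05. Over all 18193 genes, 3943 had such an unadjusted p when limma was fitted with 1 probe set per gene. For 4 of the 18 neighbours the double knockout arrays did not overlap, beside 28.4% of all genes, so the count does not set the neighbours apart. These were Golga4 beside Itga9, Ptprf and Med8 beside Hyi, and Pex3 beside Adat2. Their differences were 0.78, -0.64, -0.40 and -0.70 (limma adjusted p = 0.0612, 0.0750, 0.155 and 0.188). Amdhd1, an enzyme of histidine breakdown and the neighbour of Hal, read 3.04 in Gna12/Gna13 and 3.03 in Gnaq/Gna11 cells, under the array medians.

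Genes related to the 9 by pathway or family were listed, 102 in all, of which 82 were measured. In at least 1 double knockout, 44 of the 82 had a mean at or above 5.078, the median of all non-control values. The rest were not shown to be above background. Of the 82, 3 (3.66%) were called between the double knockouts, all lower in Gna12/Gna13 cells, against 2.82% of all genes. Arrays did not overlap for 15 (18.3%), against 28.4%. All 3 belong with Klk1. Kng1, which encodes kininogen, the substrate of Klk1, was at 5.39 ± 0.189 in Gna12/Gna13 cells and 8.05 ± 0.610 in Gnaq/Gna11 cells (SD, n = 3 each), a difference of -2.66 ± 0.319 (SE, limma adjusted p = 0.0205). Cpn1, a carboxypeptidase that trims kinins, was lower by -1.25 ± 0.196 (adjusted p = 0.0341), and the kallikrein gene Klk13 by -1.59 ± 0.148 (adjusted p = 0.0111). In the single knockouts Klk13 differed by -1.38, Kng1 by -0.19 and Cpn1 by -0.46. Of the 12 others without overlap, 5 were higher in Gna12/Gna13 cells: Vegfd at 1.31, Klk11 at 1.28, Adam8 at 0.82, Ppp3r1 at 0.69 and Thbs1 at 0.48 (adjusted p = 0.143, 0.0871, 0.173, 0.109 and 0.178). The remaining 7 were at lower values, Cpm at -0.39, Star at -0.30, Cga and Svep1 at -0.21 each, Ceacam12 and Ftcd at -0.17 each and Ceacam18 at -0.12, and none passed. All of these but Cpm had double knockout means near or under the array medians and were not shown to be above background.

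The median difference between the double knockouts was -0.10 over 18 kallikrein genes, of which 1 was called, and -0.22 over 8 kinin genes, of which 2 were called, beside -0.04 over all genes. None of the 56 genes in the other 8 lists was called by limma, and 6 had an unadjusted p under 0.05, beside 3943 of all 18193 genes. Their medians were -0.00 for 6 genes of histidine use, 0.02 for 11 integrin alpha9 partners and ligands, -0.12 for 10 CEACAM genes, 0.01 for 5 partners and relatives of tescalcin, 0.00 for 5 genes of glyoxylate and hydroxypyruvate, 0.19 for 4 RNA deaminases, -0.18 for 8 genes of steroid synthesis and -0.09 for 7 of glycoprotein hormones. Many of the related genes were under the median level, so a lack of calls or a median near 0 does not show a lack of change. Itgb1, the beta partner of Itga9, was at -0.55 ± 0.283 (SE, adjusted p = 0.367). Adat3, the partner of Adat2, was at 0.74 ± 0.330 (adjusted p = 0.302). Cga, the alpha chain that Tshb needs, read 4.14 ± 0.0420 in Gna12/Gna13 and 4.36 ± 0.0637 in Gnaq/Gna11 cells (SD, n = 3 each), under the median of every array. Hsd3b3 and Hsd3b5, the neighbours of Hsd3b2, had means of 3.15 to 4.90 in these groups, under the array medians.

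**Figure D5:**
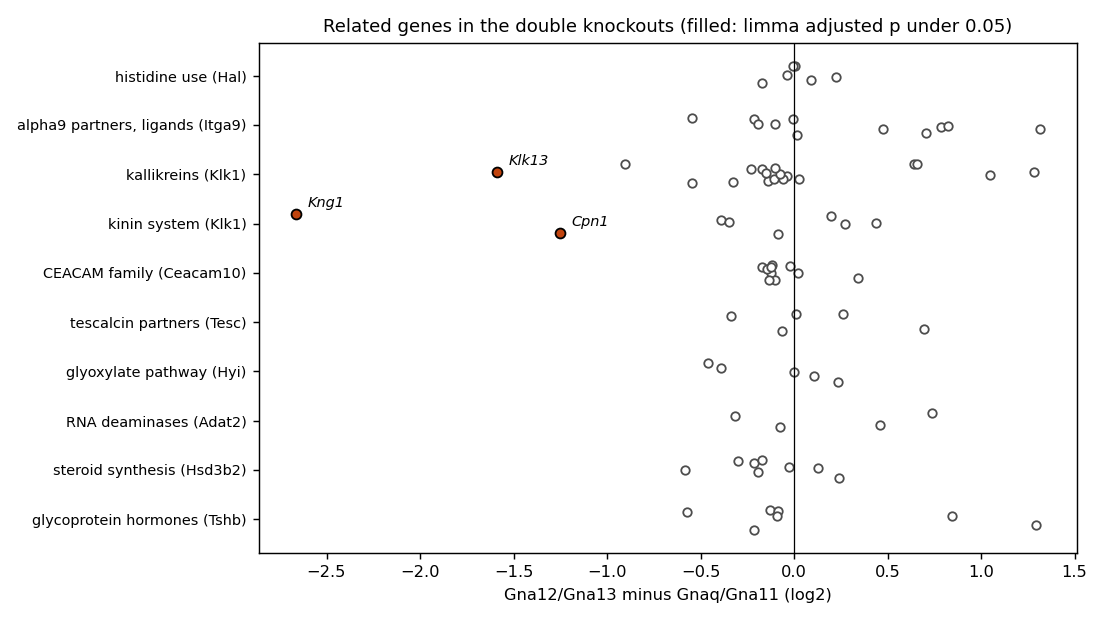
Log2 difference between Gna12/Gna13 and Gnaq/Gna11 cells for the measured members of 10 lists of related genes, each point a gene and each row a list, with the member it belongs to in brackets and the vertical scatter added for legibility. Filled points passed limma at an adjusted p under 0.05: Kng1, Klk13 and Cpn1, all to the left of 0.

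Some markers of cell types differed in the same comparison. Over all genes, 2.82% were called in it, 1.25% with Gna12/Gna13 lower, and 28.4% had arrays that did not overlap. Of 9 type II alveolar markers, 3 were called lower in Gna12/Gna13 cells, Slc34a2 by -1.60 ± 0.194, Abca3 by -0.91 ± 0.128 and Sftpb by -0.54 ± 0.0917 (SE, limma adjusted p = 0.0205, 0.0278 and 0.0411), and none was called higher. All 9 were at lower values in Gna12/Gna13 cells, 6 of them without overlap, beside 15.5% of all genes lower without overlap. Their mean was 10.37 to 10.67 in Gna12/Gna13 arrays and 11.18 to 11.32 in Gnaq/Gna11 arrays, and 10.30 to 10.81 in Gna12 arrays and 10.89 to 11.12 in Gna11 arrays. Of 7 fibroblast markers, Col1a1 and Col3a1 were lower, by -2.25 ± 0.288 and -2.26 ± 0.372 (adjusted p = 0.0226 and 0.0381). The collagen gene Col1a2 was at -2.69 and did not pass (adjusted p = 0.121). Outside the collagens, Dcn, Lum, Pdgfra and Pdgfrb were at 0.10, -0.08, -0.005 and -0.55 (adjusted p = 0.921, 0.713, 0.989 and 0.761). The list mean, which includes the collagens, was 5.38 to 6.29 in Gna12/Gna13 arrays and 6.55 to 7.21 in Gnaq/Gna11 arrays. Of 8 mast cell and basophil genes Cma1 was called, and 5 in all were at lower values in Gna12/Gna13 cells. Among these were Mcpt8 at -1.34 ± 0.632, Cpa3 at -0.64 ± 0.162, without overlap of the arrays, and Tpsb2 at -0.25 ± 0.160 (SE, adjusted p = 0.325, 0.101 and 0.468). Kit, Fcer1a, Ms4a2 and Mcpt4 had means of 3.12 to 3.83 in all groups, under the array medians. Cpa3, with group means of 3.64 to 4.47, was also under the array medians and not shown to be above background. The means of Tpsb2 in both double knockouts were under the array medians as well. Of 20 pan-leukocyte, 12 macrophage, 7 epithelial, 6 endothelial and 7 airway markers none was called by limma. An unadjusted p under 0.05 was found for 18 of these 52, beside 3943 of all 18193 genes. All 7 airway markers were at higher values in Gna12/Gna13 cells, 4 of them without overlap. Of the 7 epithelial markers, 5 were higher without overlap and 1 lower without overlap. Nearest to a call were Cdh1 at 0.82 and Foxj1 at 1.29 (limma adjusted p = 0.0501 and 0.0675). The macrophage mean was 9.20 to 10.66 in Gna12/Gna13 arrays and 10.15 to 10.27 in Gnaq/Gna11 arrays. In RNA from whole cultures, fewer cells of a type and less RNA per cell cannot be told apart, and the part of these markers in the differences of the 9 genes was not tested.

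The 4 double knockout arrays with low Eif2s3y hold 1 Gna12/Gna13 array, replicate 2, so they give values only: Hal differed by -5.36 and Itga9 by -4.39 there. With Eif2s3y as a covariate in the 6 arrays 2 genes were called by limma, Hal at -5.40 and Hyi at -3.52 (adjusted p = 0.0287 and 0.0323). Itga9 was at -4.47 in that fit and did not pass (adjusted p = 0.0522). With the mean of the pan-leukocyte genes in the model, 4 were called.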

How the data were processed

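RNA of 12 samples was hybridised to Affymetrix mouse arrays. The deposited table holds log2 expression values for 45101 probe sets, made by the authors with RMA, per the submitters' processing notes, which corrects background, normalizes between arrays and summarises probes. The sources used here give no software version or genome build and no log base, which was taken as 2 from the use of RMA and the range of 2.13 to 14.1. The number of arrays limits the precision. No detection calls were used.

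Of 45037 non-control probe sets, 34945 had 1 gene in the platform annotation, 932 several and 9160 none. Symbols were updated by gene number with RefSeq (GRCm38.p6) for 34741, and 204 kept the platform's symbol. Chromosome order came from that table. Groups followed the sample titles, and no arrays were identical.

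Gna12/Gna13 minus Gnaq/Gna11 was fitted with limma 3.58.1 in R 4.3.3 (lmFit, eBayes allowing the variance to follow intensity; 4 residual degrees of freedom and 3.26 from the prior) on these 6 arrays alone, since the rule for the set uses the single knockout arrays. Tests were two-sided, adjusted by Benjamini-Hochberg over all non-control probe sets. An exact permutation test of 3 against 3 arrays cannot go below p = 0.1. On simulated data, 43% of probe sets changed by 1 and 80% of those changed by 2 log2 units were called. Named genes are the 9 members, the targeted genes, the 3 genes most correlated with each member, nearest neighbours on the chromosome, and from the lists the called or non-overlapping relatives and the direct partners of a member. Marker genes named with values, and genes next to the set by the size of the single knockout gap, were chosen after their values were seen. Members and lists were chosen with earlier results of these data known.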

Additional observations from a re-analysis of the deposited data

Results flagged for a closer look

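For Klk1 and Ceacam10 the arrays of both double knockouts lay between those of the single knockouts, with no overlap. Genes chosen for a large single knockout gap can show this by the choice alone, and its share over all genes was not counted. For Klk1, Gna12/Gna13 minus Gna12 was 1.09 and Gnaq/Gna11 minus Gna11 was -0.57. Its closest arrays were at 7.89 against 7.80 and at 10.19 against 10.21. The dimmer Klk1 probe sets gave 0.05 and 0.01 for the first difference, and -0.09 and -0.05 for the second. For Ceacam10, Gna12/Gna13 minus Gna12 was -0.62 and Gnaq/Gna11 minus Gna11 was 2.45. The difference between these differences was not tested, because the single knockout arrays had chosen the genes.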

How the results depend on the processing

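Each of the 9 genes kept its sign under all 19 alternatives. Most of these could not reverse it, because the arrays of the double knockouts did not overlap. Only the covariates, quantile normalization, median centring and the mean of a gene's probe sets could. The double knockout arrays of all 9 stayed apart after quantile normalization, after median centring and as the mean of a gene's probe sets, the alternatives that could make them overlap. Calls are given for the alternatives with more than 1 array per group. Hal was called under all of them (limma adjusted p 2.37e-05 to 0.0473), and Itga9 under all but the replicate block and Eif2s3y as a covariate. Hyi was not called with the replicate block or the pan-leukocyte mean, without Gna12/Gna13 replicate 3, or without any 1 Gnaq/Gna11 array. Hsd3b2 was called under 12, Tshb under 11, Klk1 under 9 and Adat2 under 7. Ceacam10 and Tesc were called under 0 (adjusted p 0.0992 to 0.388 and 0.140 to 0.438). The count of 877 called probe sets, 522 higher and 355 lower, became 1473 among probe sets at or above the median level, 508 with the pan-leukocyte mean, 459 with the Gapdh 3' minus 5' difference and 78 with Eif2s3y as a covariate, and 41 in the 4 arrays with low Eif2s3y, an alternative chosen after seeing the data that rests on 1 Gna12/Gna13 array, assumed to vary like the other group. Leaving out 1 array gave 86 to 456. The count of 7 called genes was 4 with the pan-leukocyte mean, 2 with Eif2s3y as a covariate and 2 to 4 without 1 array. With the replicate number as a block, 11 probe sets and 1 gene, Hal, were called. Deviations of same-numbered double knockout arrays correlated at 0.004, 0.012 and 0.024 over all probe sets, and the main fit used no block. These correlations cannot exclude that same-numbered arrays share a preparation. Outside the Gnaq/Gna11 group, Eif2s3y was low in replicate 2 alone. Which of the fits is the right one was not settled. The single knockouts were not checked for pairing. After median centring of the arrays, 561 of 868 called probe sets were higher. The cause of these changes was not tested.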
